A study of Mus musculus with 10 samples.

Results

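Cultures of equal age and opposite temperature history were set side by side: NIH3T3 cells 9 h after cooling from 38 to 33 °C, and NIH3T3 cells 9 h after warming from 33 to 38 °C. They are 2 of the 10 samples of the series, picked by time point and course alone. NIH3T3 is an established mouse fibroblast line, wild type here. All cells were seeded at 37 °C for 4 h and then held for 16 h at 38 °C (the cooled course) or at 33 °C (the warmed course). At the change of temperature each course moved to the other temperature, so at 9 h both cultures had been growing for 29 h. Libraries were strand-specific and paired-end, made from rRNA-depleted total RNA, with reads in exons and in introns counted apart for each gene. The question is which RNAs stand at different levels in cells now at 33 °C and cells now at 38 °C, and whether exon reads, intron reads or the ratio between them carry the difference.

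Each of the 2 samples has 2 columns of counts, named by numbered series: 5 and 11 for the cooled sample, 2 and 13 for the warmed one. The labels do not say what the series are, or whether they came from separate cultures, so the columns are not counted as replicates. Values are always given in the order 5, 11 for the cooled sample and 2, 13 for the warmed one. Differences are cooled minus warmed on the log2 scale, for the pair 5 minus 2 and then for the pair 11 minus 13, and a positive difference means higher at 33 °C. The 4 columns held 37995198, 22403625, 39832234 and 28593421 reads in exons, and 15313374 to 20884243 in introns. Because each series lies in 1 course only, a lasting difference between 2 series cannot be told apart from an effect of temperature history. For that reason the same difference is also given at 0 h, just before the change, when the temperatures were the other way round. A gene that follows the present temperature has opposite signs at 0 and 9 h.

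Mild cooling of mammalian cells is known to raise a small set of cold-inducible RNA-binding proteins, of which Cirbp and Rbm3 are the best studied. Warming towards fever temperature engages HSF1, the transcription factor that switches on cytosolic chaperones when proteins unfold, and protein folding in the endoplasmic reticulum has its own stress response. Intron reads come mostly from unspliced, young RNA and exon reads mostly from mature RNA. The exon-to-intron ratio therefore moves with splicing and with the stability of the mature RNA, which it cannot separate.

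At 9 h the cells at 33 °C had more RNA of Cirbp, of the elastase gene Cela1 and of 19 of 44 replication-dependent histone genes tested. They had less RNA of 22 of 32 chaperones listed as HSF1-driven, of all 18 chaperones of the endoplasmic reticulum and of 27 of 30 genes of G2 and mitosis. These counts are calls of the edgeR test on fitted levels, which called 22.3% of all genes higher and 27.0% lower. In the pair 5 minus 2, 2 of the 18 were higher at 33 °C. Among 10173 genes with a mean exon RPKM (reads per kilobase of the gene, scaled to library size) of at least 1, 29 were at least 2-fold higher at 33 °C in both pairs (0.285%) and 51 at least 2-fold lower (0.501%), together 80 (0.786%). Of these, 20 and 39 had the opposite sign in both pairs at 0 h, and 3 and 6 had the same sign. Over all genes, 1378 of the 3088 higher in both pairs at 9 h and 1475 of the 3280 lower had the opposite sign. Protein-coding genes made up 23 of the 29 and 42 of the 51, and 14 and 24 overlap another annotated gene. The limit of 2-fold falls in a dense stretch of values: Adat1 (-1.003 and -1.302) and Lace1 (-1.05 and -1.003) lay just inside it, and 8430406I07Rik (-1.26 and -0.996) just outside.

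**Figure D1:**
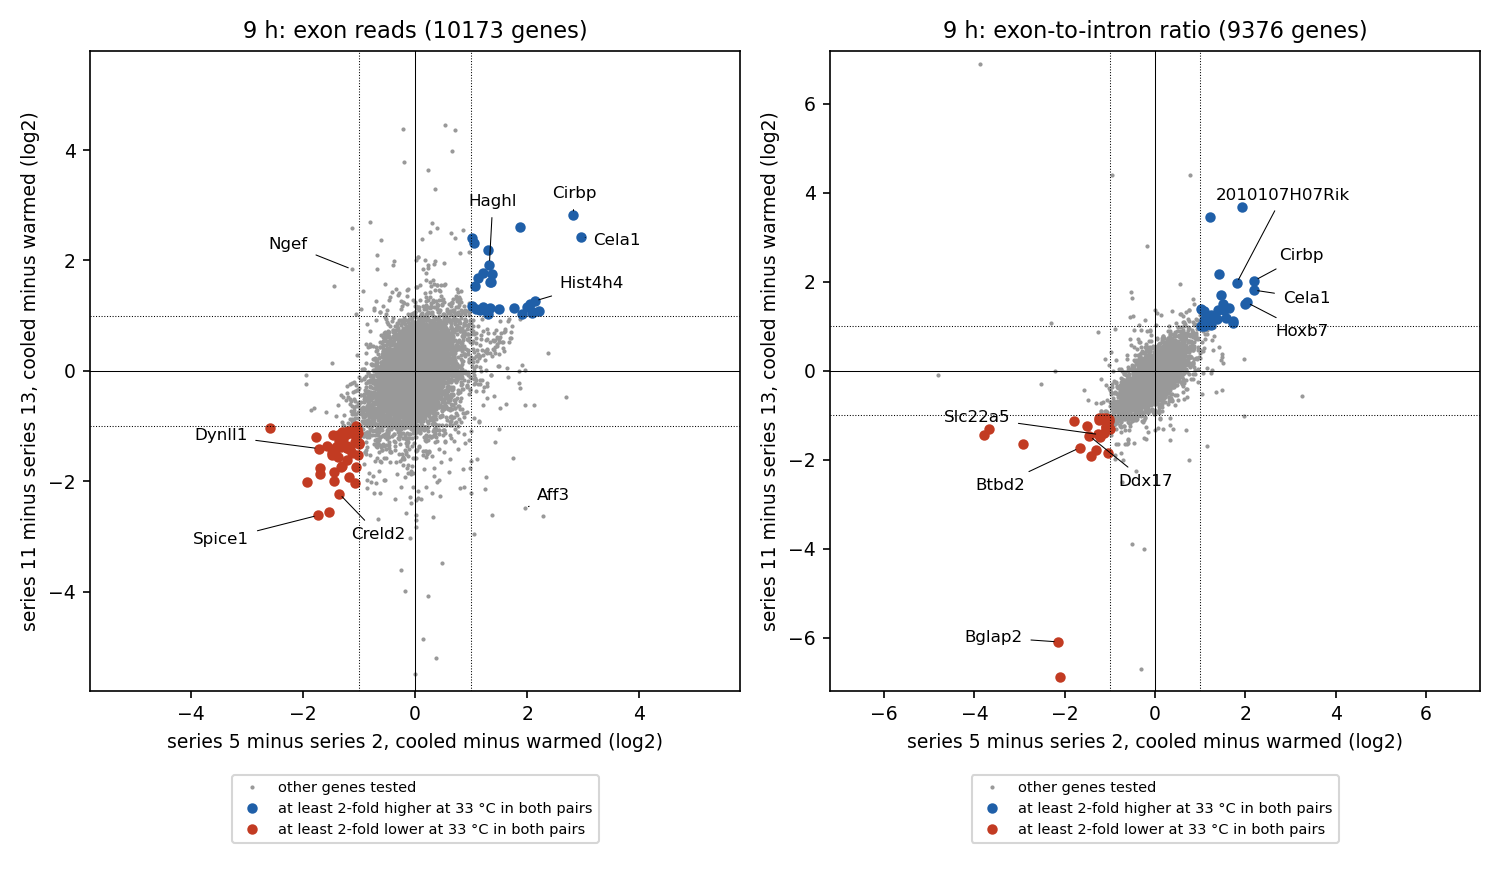
Difference between the cooled and the warmed sample at 9 h in the 2 column pairs, for exon reads (left) and for the exon-to-intron ratio (right), both axes in log2 units, each point a gene and dotted lines at 2-fold. Cirbp lies at 2.82 on both axes for exons, the blue and red genes are those past 2-fold in both pairs, and the unlabelled red point below Bglap2 is Kpna1.

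A test was possible only through the time courses, since each course has 1 sample at 9 h. The edgeR quasi-likelihood test took the fitted 9 h level of each course from all 10 samples, with the scatter around the 2 time trends as its error, and Benjamini-Hochberg adjustment ran over all genes. It called 5015 exon genes (49.3%), 2272 of them higher (22.3%) and 2743 lower (27.0%) at 33 °C at an adjusted p under 0.05. That background is high, and it holds lasting differences between the courses as well: 2163 of the called genes (43.1%) had the opposite sign in both pairs at 0 h, 993 (19.8%) the same sign, and the others a mixed one. A call rests on the fitted level, and 4170 of the 5015 called genes had the called sign in both pairs at 9 h. Across all genes the 2 pairs correlated at r = 0.34 at 9 h. The 9 h difference correlated with the 0 h difference at r = -0.27 in the pair 5 minus 2 and at r = 0.27 in the pair 11 minus 13, a description across genes that share libraries.

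**Figure D2:**
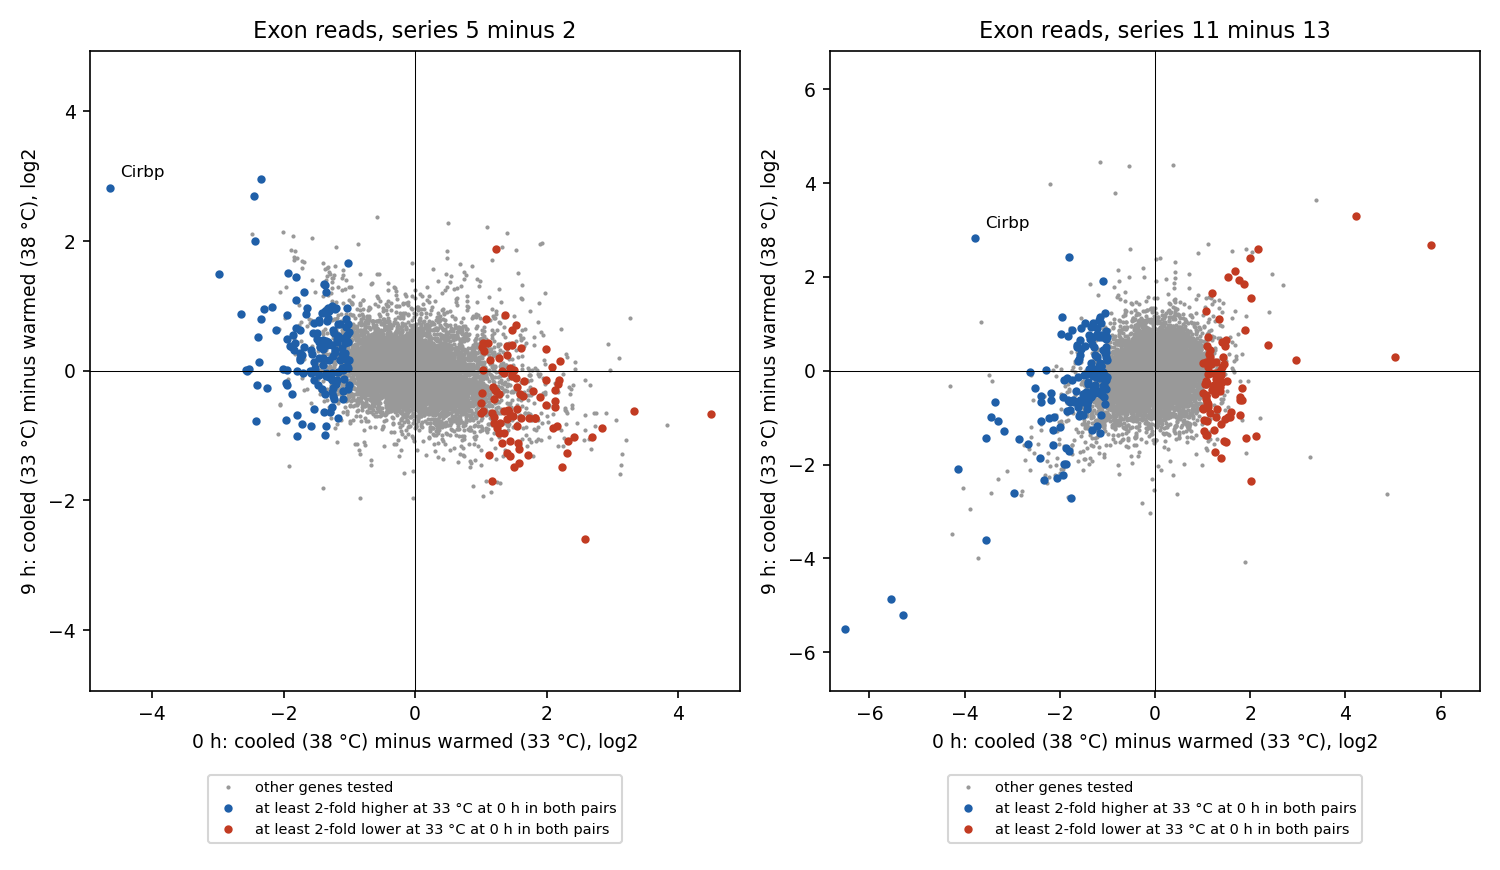
Exon difference at 9 h (cooled at 33 °C minus warmed at 38 °C) against that at 0 h (cooled at 38 °C minus warmed at 33 °C), log2, 1 point per gene, for each column pair. In the pair 5 minus 2 the cloud leans down to the right (r = -0.27), and in the pair 11 minus 13 it leans up (r = 0.27); blue and red mark the genes 2-fold apart in both pairs at 0 h.

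The genes that separated the temperatures before the change were followed to 9 h. At 0 h, 152 exon genes were at least 2-fold higher at 33 °C in both pairs (1.49%) and 88 at least 2-fold lower (0.865%). At 9 h, 52 of the 152 were again on the side of 33 °C in both pairs, 5 of them by 2-fold, while 43 stood on the opposite side and 57 differed between the pairs. Over all genes 30.4% were higher and 32.2% lower at 33 °C in both pairs at 9 h, so the counts of the 152 lay near those shares. Of the 88 genes that had been lower at 33 °C, 53 were lower again, 8 of them by 2-fold, and 19 were higher, beside the same 32.2% and 30.4%. The median difference of the 152 genes, 33 °C minus 38 °C, was 1.39 and 1.44 at 0 h and 0.30 and -0.30 at 9 h, so the 2 pairs disagreed in sign. For the 88 it was -1.47 and -1.31 at 0 h and -0.51 and -0.29 at 9 h.

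Cirbp, the cold-inducible RNA-binding protein in the title of the series (ENSMUSG00000045193, GRCm38 chromosome 10, 80165985 to 80172786, plus strand), stood at 23.9 and 25.5 exon RPKM at 33 °C and at 3.30 and 3.52 at 38 °C. The groups did not overlap, and the pair differences were 2.82 and 2.82. At 0 h its exon level had been 1.33 and 2.04 in the cooled course, then at 38 °C, and 35.4 and 29.4 in the warmed course, then at 33 °C. At 9 h the cooled columns were therefore below, and the warmed columns above, those taken after 16 h at the same temperature. That comparison runs across series, so a lasting difference between series cannot be told apart from an effect of temperature history. The fitted difference was 3.27 ± 0.33 (SE; edgeR adjusted p = 0.000117). Cirbp intron RPKM was 3.77 and 3.57 at 33 °C against 2.50 and 2.13 at 38 °C, a far smaller difference of 0.59 and 0.74. The intron test gave 0.81 ± 0.20 (edgeR adjusted p = 0.0221), and the call was lost when the cooled 6 h, the cooled 9 h or the warmed 6 h sample was left out (adjusted p up to 0.0849). The exon-to-intron ratio, with both read types on the exon scale, was 11.6 and 11.4 at 33 °C and 2.47 and 2.75 at 38 °C (2.49 ± 0.33, edgeR adjusted p = 0.00288).

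Rbm3, the other well-known cold-inducible RNA-binding protein (GRCm38 chromosome X, 8138975 to 8145880, minus strand, overlapping the antisense gene Rbm3os), did not separate in the same way. Its exon RPKM was 43.0 and 32.4 at 33 °C and 42.9 and 16.0 at 38 °C, so series 2 of the warmed sample was as high as series 5 of the cooled one. The pair differences were 0.01 and 1.01, and the fitted exon difference was 0.11 ± 0.15 (edgeR adjusted p = 0.564). At 0 h Rbm3 had been 10.8 and 16.4 in the cooled course and 64.8 and 45.7 in the warmed course. Its intron RPKM at 9 h was 7.42 and 5.35 against 12 and 5.69. The ratio was 10.6 and 9.71 at 33 °C and 6.70 and 4.69 at 38 °C, without overlap, and passed the test (0.96 ± 0.17, edgeR adjusted p = 0.00591). The intron call (-0.86 ± 0.25, edgeR adjusted p = 0.0388) was lost without the cooled 0, 3, 6 or 9 h or the warmed 3 or 6 h sample (adjusted p up to 0.115), and the ratio call was lost with time as a shared block or in linear hours.

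**Figure D3:**
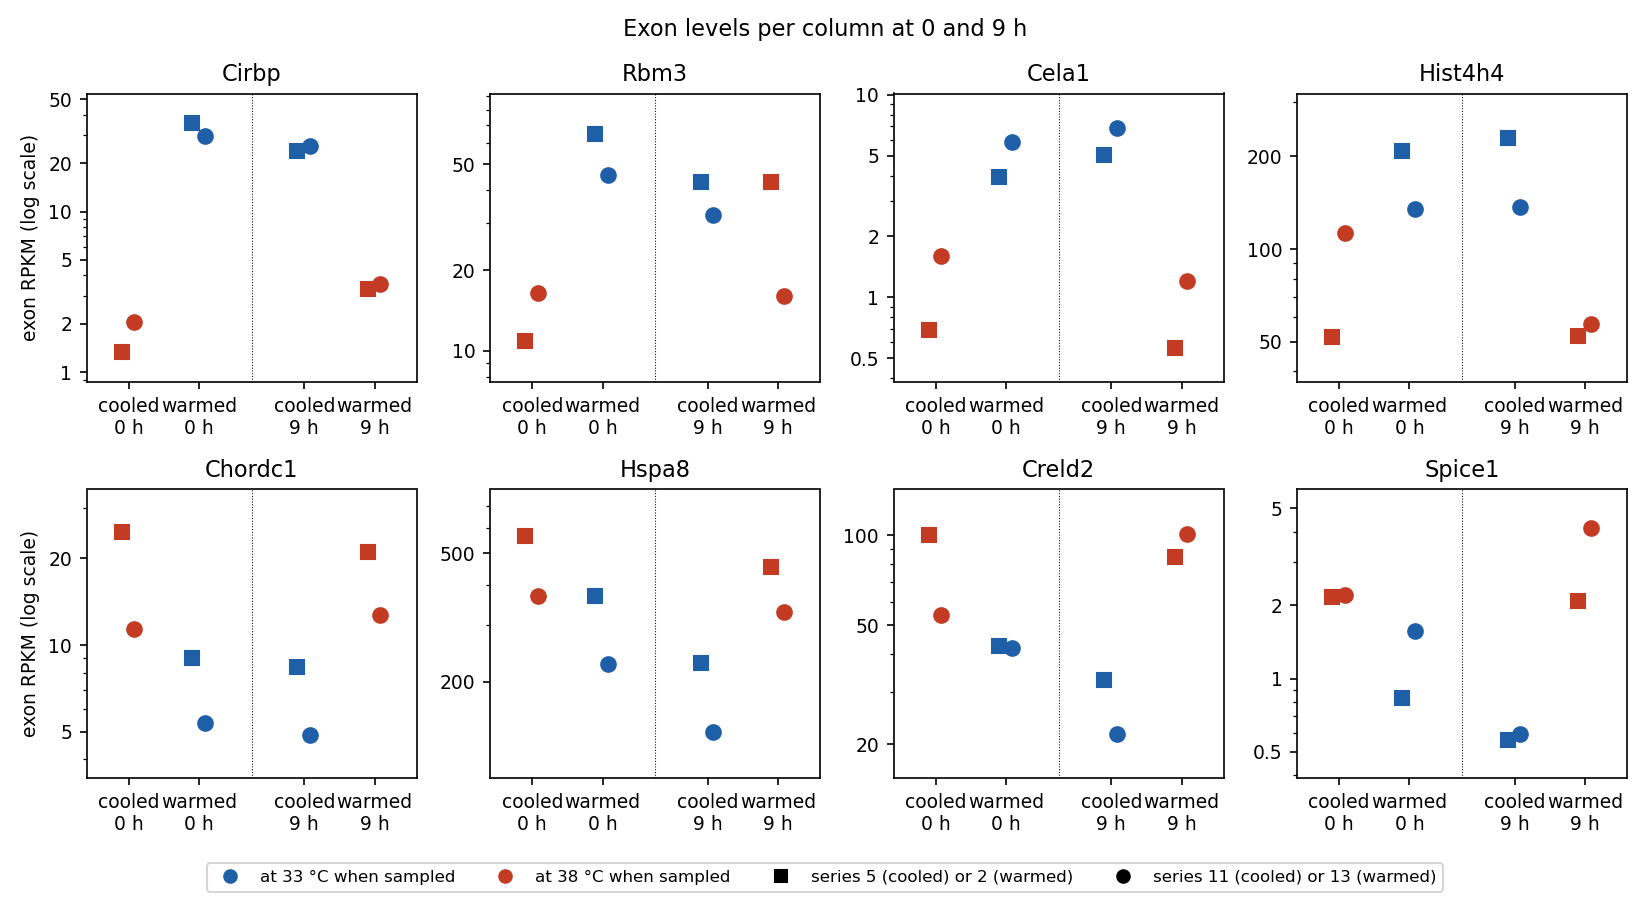
Exon RPKM (log scale) of 8 genes in every column at 0 and 9 h, blue for columns at 33 °C and red for columns at 38 °C when sampled, squares for series 5 and 2 and circles for series 11 and 13. Blue and red change sides between the courses for Cirbp and Cela1, while Rbm3 at 9 h overlaps (43.0 in series 5 and 42.9 in series 2).

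Of 10 genes listed as cold-inducible RNA-binding proteins or their relatives, 8 were measured well enough to test; 4 were higher at 33 °C and 2 lower, where 22.3% and 27.0% of all genes were. Besides Cirbp these included Srsf5, an SR protein of the splicing machinery, at 96.9 and 87.0 RPKM against 56.8 and 41.8 (1.29 ± 0.21, edgeR adjusted p = 0.000868), and Rbmx (8.78 and 6.32 against 7.26 and 2.83). Rbm5, a splicing regulator, was lower at 33 °C, at 5.66 and 5.36 RPKM against 6.5 and 6.77. Among 12 SR proteins and Tra2 genes, 4 were higher and 2 lower, beside the same shares of all genes. The 2 lower ones were Tra2a (6.99 and 7.23 against 16.5 and 10.5 RPKM) and Srsf7 (35.4 and 28.7 against 64.4 and 36.9). For both genes the ratio was lower as well, with pair differences of -1.11 and -0.91 for Tra2a and of -0.81 and -0.99 for Srsf7, while their intron differences had mixed signs between the pairs.

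Among the higher protein-coding genes, ranked by the smaller pair difference, Cirbp was followed by Cela1, a chymotrypsin-like elastase (GRCm38 chromosome 15, 100674421 to 100687921, minus strand). Its exon level was 5.06 and 6.90 RPKM at 33 °C against 0.562 and 1.2 at 38 °C, and 0 h gave the mirror image, with 0.691 and 1.59 in the cooled course and 3.93 and 5.84 in the warmed course. The fitted difference was 2.88 ± 0.17 (edgeR adjusted p = 8.87e-06). As for Cirbp, most of this lay in the ratio, 6.77 and 7.96 against 1.31 and 2.13. Xpa, which recognises DNA damage in nucleotide excision repair, was at 6.29 and 6.01 RPKM against 2.41 and 1.90. Haghl, a relative of hydroxyacylglutathione hydrolase that overlaps Narfl, was at 8.08 and 17.6 against 3.16 and 4.55, and Pcsk4, a proprotein convertase, at 6.86 and 4.92 against 2.73 and 0.998. All 3 had the opposite sign in both pairs at 0 h.

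H3f3b, which codes for the histone variant H3.3, was higher at 33 °C by 1.07 and 1.54 on exons (fitted 1.36, edgeR adjusted p = 3.05e-05). Its introns moved by as much, from 3.35 and 2.06 RPKM at 38 °C to 6.95 and 5.24 at 33 °C (1.22 ± 0.13, edgeR adjusted p = 0.00088). Other genes passed on the same side at low levels. Nxpe4 stood at 2.39 and 2.69 RPKM against 0.523 and 1.16, and Zfp580, a zinc finger gene, at 1.74 and 2.02 against 0.628 and 0.861; 1700003F12Rik, which lies over Necab3, stood at 1.27 and 2.11 against 0.490 and 0.546. These 3 genes had the opposite sign in both pairs at 0 h. Iqcf5 was at 2.17 and 2.78 against 0.782 and 0.750, and 1700008I05Rik at 4.25 and 1.81 against 1.08 and 0.215, with no overlap between the groups. Both were also higher in the cooled course at 0 h in both pairs, when those cells were at 38 °C (0.53 and 0.39 for Iqcf5, 1.22 and 2.16 for 1700008I05Rik). At 9 h the differences were wider, at 1.37 and 1.76 for Iqcf5 and at 1.88 and 2.603 for 1700008I05Rik. Without series 11 and 13, the calls of Zfp580 and 1700003F12Rik were lost.

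Among protein-coding genes on the lower side, ranked by the smaller pair difference, the first was Spice1, which codes for a protein of spindles and centrioles (GRCm38 chromosome 16, 44347121 to 44388497, plus strand). It stood at 0.560 and 0.594 RPKM at 33 °C and at 2.09 and 4.16 at 38 °C (-2.59 ± 0.25, edgeR adjusted p = 0.000102). At 0 h it had been 2.16 and 2.19 in the cooled course and 0.831 and 1.57 in the warmed course. Dynll1, a light chain of the dynein motor, was at 31.7 and 24.6 RPKM against 104 and 65.7 (-1.67 ± 0.17, edgeR adjusted p = 0.000131). The zinc finger genes Zbtb40 (1.1 and 0.900 against 3.03 and 2.87 RPKM) and Thap2 (1.02 and 1.03 against 2.89 and 2.84) showed narrow spreads within each sample. The uncharacterised genes 2810006K23Rik (1.49 and 1.32 against 5.09 and 4.75) and 9430015G10Rik (2.13 and 2.05 against 6.17 and 6.08) did too, each with the opposite sign at 0 h. Fam120c, Fam129c, 1190005F20Rik and Tsga14 stood lower as well, with cooled levels between 0.457 and 1.59 RPKM and warmed levels between 1.42 and 4.65. Tsga14 alone of these 4 had mixed signs at 0 h.

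A stricter floor, a mean of at least 5 exon RPKM, left 27 of the 80 genes. The genes in this paragraph were picked from those 27 after their values were seen. Rangap1, the activator of the GTPase Ran in nuclear transport, was lower at 33 °C, with differences of -1.304 and -1.113, and so was Chtf8, a subunit of an alternative clamp loader, with -1.19 and -1.09. Ddx17, a DEAD-box RNA helicase, was lower by 1.22 and 1.40, and all 3 of these genes had the opposite sign at 0 h. Adamtsl4, a secreted matrix-associated protein, was lower by 1.22 and 1.36 at 9 h, but was lower in the cooled course at 0 h too (-0.21 and -0.40). Foxk2, a forkhead transcription factor, was lower by 1.31 and 1.33 with mixed signs at 0 h (-0.25 and 0.41).

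The chaperone genes listed as driven by HSF1 were mostly lower in the cells at 33 °C. Of 32 tested, 22 were lower at 33 °C and 3 higher, where 27.0% and 22.3% of all genes were; 21 were lower in both pairs (65.6% against 32.2% of all genes), and 16 of those were higher in both pairs at 0 h. The median member differed by -0.54 and -0.42 at 9 h and by 0.59 and 0.62 at 0 h, beside -0.03 and 0.01, and -0.05 and 0.03, over all genes. The 3 higher ones were Cct2, Cct5 and Tcp1, subunits of the TRiC chaperonin for which the pair 5 minus 2 was slightly negative. The list was chosen with earlier results of these data known, so its counts are a description.

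Chordc1, a partner of HSP90, came first in the list by the smaller pair difference, at 8.38 and 4.85 RPKM against 21.1 and 12.7 (-1.92 ± 0.30, edgeR adjusted p = 0.00083). Hspa8, the constitutive HSP70, was at 228 and 140 against 454 and 329. Hsph1, an HSP110 exchange factor, was at 22.7 and 26.9 against 55.8 and 53.1, and Stip1, which links HSP70 to HSP90, at 191 and 133 against 417 and 242. In all 4 genes every cooled column lay below every warmed one. They were picked by the smaller pair difference in these same columns, so this is a description. The share of all genes with such a gap was not computed. The HSF1 gene itself was lower by 0.84 and 0.68. The stress-inducible Hspa1b was at 2.28 and 4.35 RPKM against 3.65 and 6.56 and did not pass the test (-1.63, edgeR adjusted p = 0.0748). Its columns overlapped between the samples, and its near-identical copy Hspa1a was too low to test.

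On introns fewer genes of this group passed. Of 31 genes with introns tested, 21 were lower in both pairs (28.4% of all genes), 17 of them with the opposite sign at 0 h, and 5 were called lower and none higher by edgeR, where 11% and 9.07% of all genes were called. The exon-to-intron ratio of the list had a median difference of 0.003 and -0.16 beside -0.03 and -0.09 over all genes, with 1 gene called lower, Hsf1. Dnajb1, the HSP40 partner of HSP70, was the only gene of the list 2-fold lower on introns in both pairs, at 5.37 and 4.16 intron RPKM against 13.9 and 10.3, but did not pass the intron test (edgeR adjusted p = 0.063). Its exons stood at 30.3 and 24.7 against 56.7 and 42.6, and its ratio at 10.3 and 9.54 against 7.63 and 6.89.

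HSF1 binds arrays of inverted GAA units, and such arrays were searched for in RefSeq promoters of GRCm38.p6 (250 bases before to 50 after each start, both strands) as GAA, TTC and GAA, or TTC, GAA and TTC, with 2 bases of any kind between units. Of the 27 list genes found in the table, 4 hold one (Chordc1, Hspd1, Hspe1 and Hsph1), against 0.662% of 27025 genes. The stretches of Chordc1 (chr9:18292197-18292296, plus strand) and Hsph1 (chr5:149636286-149636385, minus strand) are shown because these genes had the largest exon differences of the list in the pair 5 minus 2. The matched bases are in capitals. In Chordc1 overlapping matches run over 23 bases and begin 4 bases before the start, and in Hsph1 a single match begins at base 16 after it.
Chordc1: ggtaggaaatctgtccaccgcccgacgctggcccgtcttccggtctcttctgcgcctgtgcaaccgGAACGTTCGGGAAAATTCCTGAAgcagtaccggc
Hsph1: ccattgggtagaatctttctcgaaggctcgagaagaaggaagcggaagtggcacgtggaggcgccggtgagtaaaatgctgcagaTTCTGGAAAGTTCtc

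Of the chaperones of the endoplasmic reticulum, targets of the unfolded protein response, edgeR called all 18 tested lower at 33 °C, where 27.0% of all genes were. In both pairs 16 of the 18 were lower (32.2% of all genes), and 2 were higher in the pair 5 minus 2. Creld2, a disulfide isomerase-like protein, was at 32.9 and 21.6 RPKM against 84.5 and 101 (-2.04 ± 0.23, edgeR adjusted p = 0.000182). Sdf2l1, which helps the main HSP70 of this compartment, was at 36.9 and 26.8 against 67.2 and 117, and Hspa5, that HSP70 itself, at 246 and 193 against 429 and 378. The list differed more in the pair 11 minus 13 (median -0.85) than in the pair 5 minus 2 (-0.24). At 0 h it stood at 0.52 and -0.09, and 8 genes lower in both pairs at 9 h had the opposite sign in both pairs at 0 h (14.5% of all genes had that pattern). A fit on series 2 and 5 alone called 10 of the 18 lower, and 1 on series 11 and 13 alone all 18, where 1980 and 2727 of all 10173 genes were. Introns were lower in both pairs for 17 of 18 genes, 8 of them called.

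An element through which ATF6 is known to act, CCAAT and CCACG with 9 bases of any kind between them, was searched for on either strand. It was found in 8 of 18 promoters of the list against 0.137% of all genes. The 2 shown belong to Creld2 (chr15:88819480-88819579, plus strand), the list gene with the largest difference in both pairs, and to Hspa5 (chr2:34771985-34772084, plus strand), the most widely used marker of this response. In Creld2 the match is on the opposite strand. Capitals mark the match of 19 bases. A match describes the letters and not a bound site.
Creld2: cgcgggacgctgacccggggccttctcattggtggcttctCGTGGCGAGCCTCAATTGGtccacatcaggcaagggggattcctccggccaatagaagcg
Hspa5: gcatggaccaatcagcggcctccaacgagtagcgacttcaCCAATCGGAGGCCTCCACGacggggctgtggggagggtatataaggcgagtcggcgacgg

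The cell cycle lists did not move together. Of 30 genes of G2 and mitosis, edgeR called 27 lower at 33 °C and none higher, where 27.0% and 22.3% of all genes were. In both pairs at 9 h 28 were lower, all 28 with the opposite sign in both pairs at 0 h (14.5% of all genes had that pattern). The median difference was -0.80 and -0.27 at 9 h and 1.62 and 0.69 at 0 h, so the list was lower in whichever culture stood at 33 °C. Ube2c, which helps mark mitotic proteins for destruction, was at 27.3 and 26.4 RPKM against 58.5 and 44.7, and Aurka, the Aurora A kinase, at 35.9 and 31.0 against 76.3 and 44.4. Nusap1, a spindle protein, was at 22.6 and 24.4 against 47.3 and 35.5. Hmmr was at 24.0 and 21.4 against 53.5 and 35.3, but its call (-0.65, edgeR adjusted p = 0.0237) was lost without the cooled 9 h, warmed 6 h or warmed 9 h sample, and its fitted difference was -0.35 without the cooled 9 h sample. The fit on series 11 and 13 alone called 15 of the 30 lower and 1 higher. On introns 22 of 30 were called lower.

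The cell cycle genes homology region, TTTGAA on either strand, lies in 20 of the 25 promoters of this list found in the table and in 20.2% of all genes. Cenpf, a kinetochore protein with the largest exon difference of the list in the pair 5 minus 2 (-1.29), is shown from chr1:189688057-189688156, minus strand, with the 6 matched bases in capitals.
Cenpf: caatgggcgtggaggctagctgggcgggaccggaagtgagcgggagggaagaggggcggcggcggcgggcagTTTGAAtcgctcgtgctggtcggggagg

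Replication-dependent histone genes, which are expressed in S phase, went the other way. All of them share close sequence with their copies, so reads could have been assigned to the wrong copy, and single genes are uncertain. Of 44 tested, edgeR called 19 higher at 33 °C and none lower, where 22.3% and 27.0% of all genes were. In both pairs 40 were higher (90.9% against 30.4% of all genes). Of the 40, 26 had the opposite sign in both pairs at 0 h (13.5% of all genes had that pattern). The median difference was 1.45 and 0.53 at 9 h and -1.27 and -0.10 at 0 h. Hist4h4 was at 229 and 137 RPKM against 52.0 and 57.0 (1.68 ± 0.21, edgeR adjusted p = 0.000291), Hist1h3e at 298 and 195 against 72.2 and 84.7, and Hist1h1d at 129 and 73.5 against 29.7 and 35.2. Hist1h1c, a linker histone, was at 509 and 278 against 120 and 135. The fit on series 2 and 5 alone called 6 of the 44 higher and that on series 11 and 13 alone 41, where 1477 and 2808 of all 10173 genes were. The list for DNA replication and the G1/S step was divided, with medians of -0.05 and 0.18 at 9 h and of -0.78 and 0.41 at 0 h. In the pair 5 minus 2, 18 of its 29 genes stood lower. The test called 9 of the 29 higher and 2 lower, where 22.3% and 27.0% of all genes were. Those higher included the cyclin gene Ccne1 (14.5 and 12 against 8.31 and 7.11 RPKM), the polymerase gene Pole (14.5 and 15.5 against 8.89 and 8.37) and Chaf1b, a chaperone that loads new histones (19.4 and 20.5 against 12.7 and 10.9). The share of cells in each phase was not measured.

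**Figure D4:**
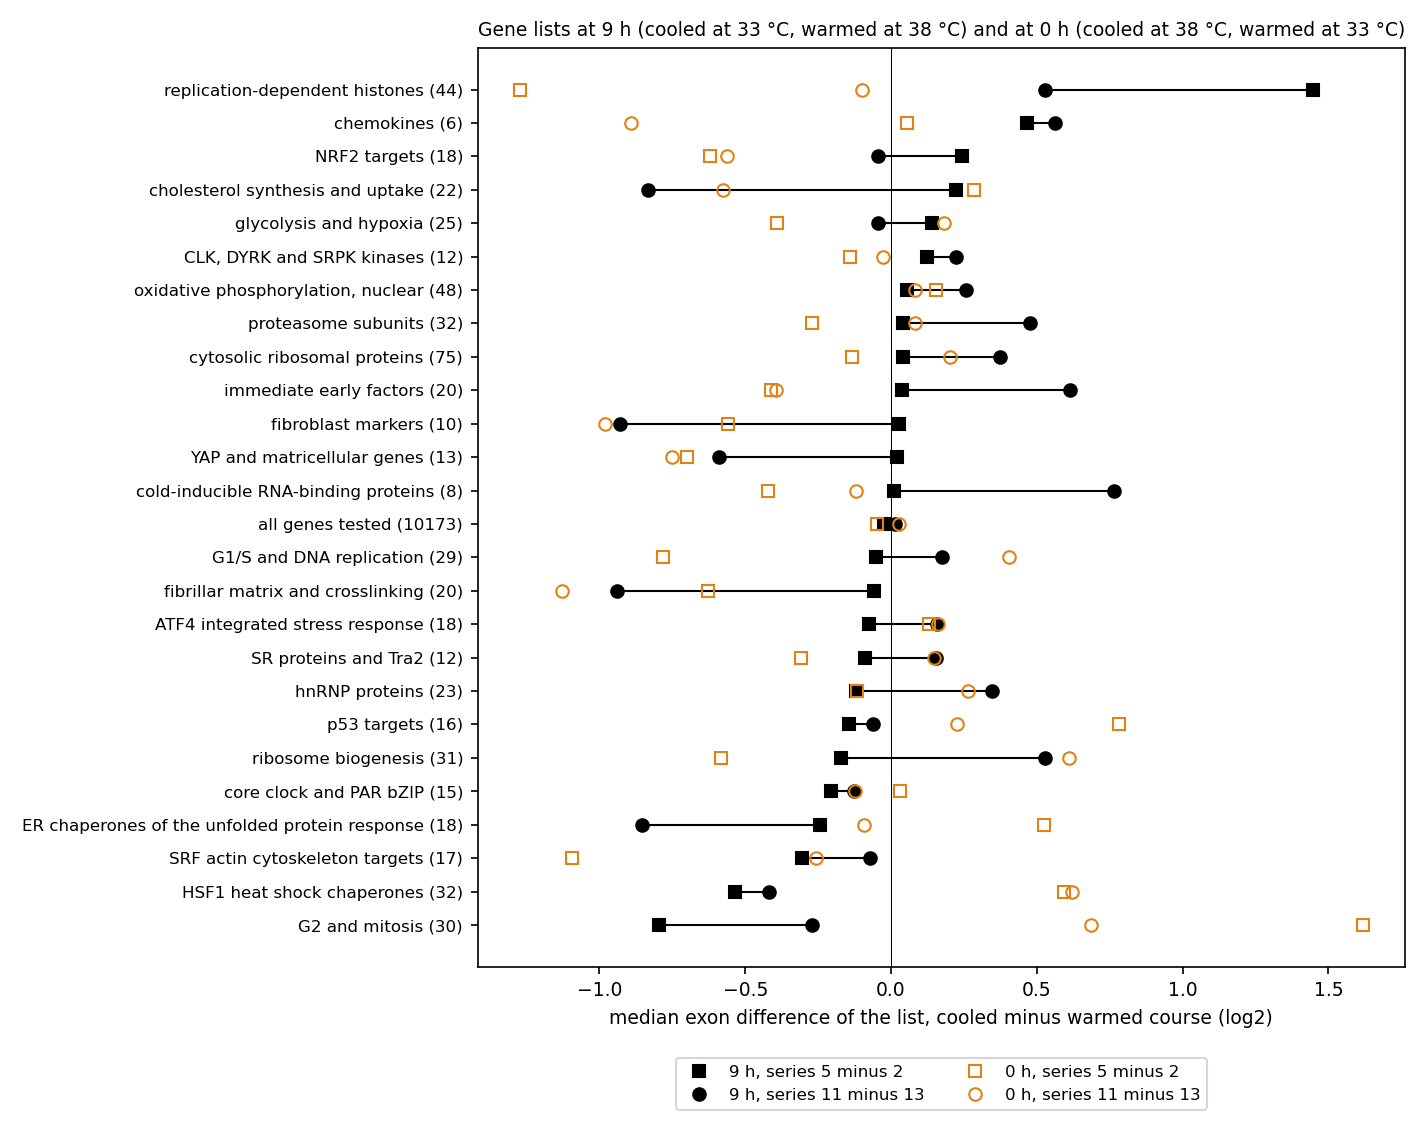
Median exon difference (cooled minus warmed, log2) of each gene list with at least 5 tested genes (number in brackets), filled symbols for 9 h and open symbols for 0 h, squares for series 5 minus 2 and circles for series 11 minus 13; a line joins the 2 pairs at 9 h. Histones lie at 1.45 and 0.53 at 9 h, and mitosis and HSF1 chaperones lie left of 0 at 9 h and right of 0 at 0 h; for cholesterol synthesis and matrix the 2 pairs lie far apart.

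Several lists were called mainly on 1 pair and are given with both. Over all genes the test called 22.3% higher and 27.0% lower. The fit on series 2 and 5 alone called 1477 of all 10173 genes higher and 1980 lower, and that on series 11 and 13 alone 2808 and 2727. For fibrillar matrix genes the test called 19 of 20 lower at 33 °C, yet the medians were -0.06 and -0.94, and 13 of the 20 were lower in the cooled course in both pairs at 0 h as well (medians -0.63 and -1.13). The collagen gene Col1a2, at 223 and 435 RPKM against 257 and 684, shows the gap between series within a sample. For cholesterol synthesis the test called 18 of 22 lower, with medians of 0.22 and -0.83. The fit on series 2 and 5 alone called 5 of the 22 higher and none lower, and that on series 11 and 13 alone called all 22 lower. The direction of this list was therefore opposite in the 2 pairs. Ribosomal protein genes were called higher in 52 of 75, with medians of 0.04 and 0.37; the fit on series 2 and 5 alone called none of them in either direction. Proteasome subunits (19 of 32 higher, medians 0.04 and 0.48) and nuclear genes of oxidative phosphorylation (24 of 48 higher and 1 lower, medians 0.05 and 0.26) had the same form. Whether these come from the series or from temperature history cannot be told apart.

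In the smaller lists the counts of called genes are to be read against 22.3% of all genes called higher and 27.0% called lower, and several lie near those shares. Nfil3, a bZIP repressor tied to the clock, was lower at 33 °C at 3.6 and 4.2 RPKM against 6.75 and 9.38 (-1.51 ± 0.27, edgeR adjusted p = 0.00154), with the opposite sign at 0 h. Per2, a core clock repressor, was at 1.42 and 2.36 RPKM against 5.43 and 3.91. Its call was lost without the cooled 9 h sample, where the fitted difference was -0.72 in place of -1.14, and in series 11 and 13 alone. In all, 2 of 15 clock genes were higher and 4 lower. Of 18 NRF2 targets, 5 were higher and 6 lower, with medians of 0.24 and -0.04. In the pair 5 minus 2, 14 of the 18 stood higher, and in the pair 11 minus 13, 10 stood lower. Hmox1, which breaks down haem, was lower at 9.79 and 11.7 RPKM against 17.2 and 18.1. Of 16 p53 targets 6 were lower and none higher, and of 18 ATF4 targets 4 were lower and 1, Ppp1r15a (8.23 and 10.1 against 5.79 and 5.39), higher. Among 20 immediate early genes 6 were higher, such as Klf4 (89.4 and 151 against 66.1 and 79.3), and 2 lower. Of 17 SRF targets 8 were lower and 1 higher, and 6 of the 17 were lower in both pairs at 0 h too. Actg1, a cytoplasmic actin, was at 116 and 122 RPKM against 205 and 178. Ribosome biogenesis genes were opposite in the 2 pairs (medians -0.17 and 0.53). In the pair 5 minus 2, 28 of 31 were lower, and in the pair 11 minus 13, 29 were higher. Only 3 of the 31 were higher in both pairs, against 30.4% of all genes, although the test called 13 higher and 1 lower. The other lists were mixed: 11 of 23 hnRNP genes were higher and 3 lower (medians -0.12 and 0.35), and 4 of 12 CLK, DYRK and SRPK kinase genes were higher. Of 25 genes of glycolysis and hypoxia 7 were higher and 4 lower, of 13 YAP and matricellular genes 2 and 4, and of 6 chemokines 1 and 2.

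Among 9376 genes with introns tested, 13 were at least 2-fold higher at 33 °C on introns in both pairs (0.139%) and 24 at least 2-fold lower (0.256%), 37 in all (0.395%), and edgeR called 1884 (20.1%), 850 of them higher (9.07%) and 1034 lower (11%). In series 11 and 13 alone the balance was turned, with 1799 higher and 1343 lower. Leaving out 1 sample moved the count of 1884 intron calls to between 350 (without the warmed 6 h sample) and 2328. The 13 genes past 2-fold include Kpna1, with 118468 intron reads in series 11 against 1114 in series 13. They also include Bglap2, Rom1 and Gm16001, with at most 7 intron reads in any of the 4 columns. Arc, with at most 2, is among the 24. Rnf26, a RING finger protein, had the largest fitted intron difference of the 6 lower genes named, at 1.08 and 0.915 intron RPKM against 3.2 and 4.99 (-2.59 ± 0.26, edgeR adjusted p = 0.000758), with 324 and 1261 intron reads in series 5 and 13. Its exons differed by -0.10 and -0.20. Zcwpw1 was at 0.160 and 0.164 against 0.450 and 0.509, Necab3 at 2.02 and 1.38 against 5.28 and 4.07, and Fam129c at 0.542 and 0.563 against 1.47 and 1.69. All of these overlap other annotated genes: Rnf26 several, Mfrp among them, Zcwpw1 Pilra, Necab3 1700003F12Rik and Actl10, and Fam129c Pgls. Whether their intron reads came from those neighbours was not tested. Foxred2 and Hoxb7 were lower on introns by 1.71 and 1.61 and by 1.92 and 1.52, while their mean exon differences were -0.19 and 0.15. Higher on introns were Hmgb3 (3.17 and 3.87 against 1.27 and 0.778), Zswim7 (1.28 and 1.3 against 0.578 and 0.385), Dcaf11 (1.25 and 1.21 against 0.405 and 0.540) and Atp5sl (1.53 and 2.16 against 0.720 and 1.03). Dcaf11 overlaps A730061H03Rik and Gm15932. Each of the calls of Hmgb3, Zswim7 and Dcaf11 was lost without the warmed 6 h, the cooled 6 h or the warmed 9 h sample, and that of Dcaf11 also without the cooled 9 h or the warmed 3 h sample (adjusted p up to 0.0552, 0.0646 and 0.115).

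The exon-to-intron ratio was the measure on which the 2 pairs agreed best, with r = 0.61 across genes. Ratios were at least 2-fold higher at 33 °C in both pairs for 29 genes (0.309%) and at least 2-fold lower for 30 (0.320%), together 59 (0.629%), and edgeR called 1109 (11.8%), 504 of them higher (5.38%) and 605 lower (6.45%). The balance of higher to lower was 384 to 326 in series 11 and 13 alone, and 223 to 159 without the cooled 9 h sample. At 0 h the balance had been different: 162 genes had a ratio at least 2-fold higher at 33 °C in both pairs (1.73%) and 11 at least 2-fold lower (0.117%). The median ratio difference over all genes was -0.32 and -0.25 at 0 h, higher in the culture at 33 °C, and -0.03 and -0.09 at 9 h. Of the 29 genes higher at 9 h, 25 had the opposite sign at 0 h, and of the 30 lower ones 17 had, with 8 of the same sign. Over all genes, 2359 of the 2728 higher in both pairs at 9 h had the opposite sign in both pairs at 0 h. Of the 4383 lower in both pairs, 833 had the opposite sign and 2675 the same sign. Kpna1, with raised intron reads in series 11, is among the 30, as are Bglap2 and Rom1, each without intron reads in 1 warmed column. Arc, without intron reads in either cooled column, is among the 29. Of the 162 genes with higher ratios at 33 °C at 0 h, 100 were on the side of 33 °C again at 9 h, 13 of them by 2-fold, and 29 on the opposite side, beside 29.1% of all genes higher and 46.7% lower at 33 °C in both pairs at 9 h.

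Among the called genes ranked by the smaller pair difference, Cirbp and Cela1 were followed on the ratio by 2010107H07Rik, which overlaps Pbrm1, at 23.5 and 19.2 against 6.49 and 4.70 (2.589 ± 0.31, edgeR adjusted p = 0.0019). Hoxb7, a homeobox transcription factor, was at 14.1 and 12.1 against 3.12 and 3.98, on few intron reads (5.95 in series 5), and Pcsk4 at 7.77 and 8.16 against 2.66 and 2.71. The Hoxb7 call was lost without the cooled 9 h sample (adjusted p 0.0531), and the Pcsk4 call without any of 5 samples, with a fitted difference of 0.56 in place of 1.07 without the warmed 9 h sample. Hist1h2bp, a histone gene close in sequence to its copies, was at 225 and 175 against 56.6 and 61.9, and lost its call without the cooled 9 h, warmed 6 h or warmed 9 h sample (adjusted p up to 0.0659).

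On the other side stood Ddx17, with a ratio of 0.891 and 0.868 at 33 °C against 2.45 and 2.40 at 38 °C (-1.20 ± 0.15, edgeR adjusted p = 0.0019). Its intron differences were 0.21 and 0.005, so the ratio followed the exons, and at 0 h the ratios had been 1.83 and 1.93 in the cooled course and 0.936 and 1.05 in the warmed one. Btbd2, a BTB-domain protein, was at 3.33 and 3.12 against 10.8 and 10.5 (-1.39 ± 0.21, edgeR adjusted p = 0.00374). At 0 h the Btbd2 ratio differences had been -0.05 and -0.35. Slc22a5, the carnitine transporter, was at 1.42 and 1.04 against 3.43 and 2.93 at 9 h, with 0 h differences of 0.08 and 0.11. In both genes the ratio was further apart at 9 h than at 0 h. C1s, a complement protease, was at 26.2 and 18.0 against 65.6 and 48.4 and was lower in the cooled course at 0 h too (-1.31 and -0.97); its call was lost without the cooled 6 h, cooled 9 h or warmed 6 h sample (adjusted p up to 0.0574). Bglap2 passed with a ratio of 15.8 and 4.13 against 79.5 and a column without any intron read (series 13). It had 2.85 intron reads in series 5, and its call was lost in 7 of the 10 fits that left out 1 sample. The ratio call of 1190005F20Rik (1.14 and 0.876 against 2.78 and 2.57) was lost without the cooled 9 h sample (adjusted p 0.0651). With time as a shared block the ratio calls of Slc22a5, C1s, Bglap2, 1190005F20Rik, Hoxb7 and Pcsk4 were lost.

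**Figure D5:**
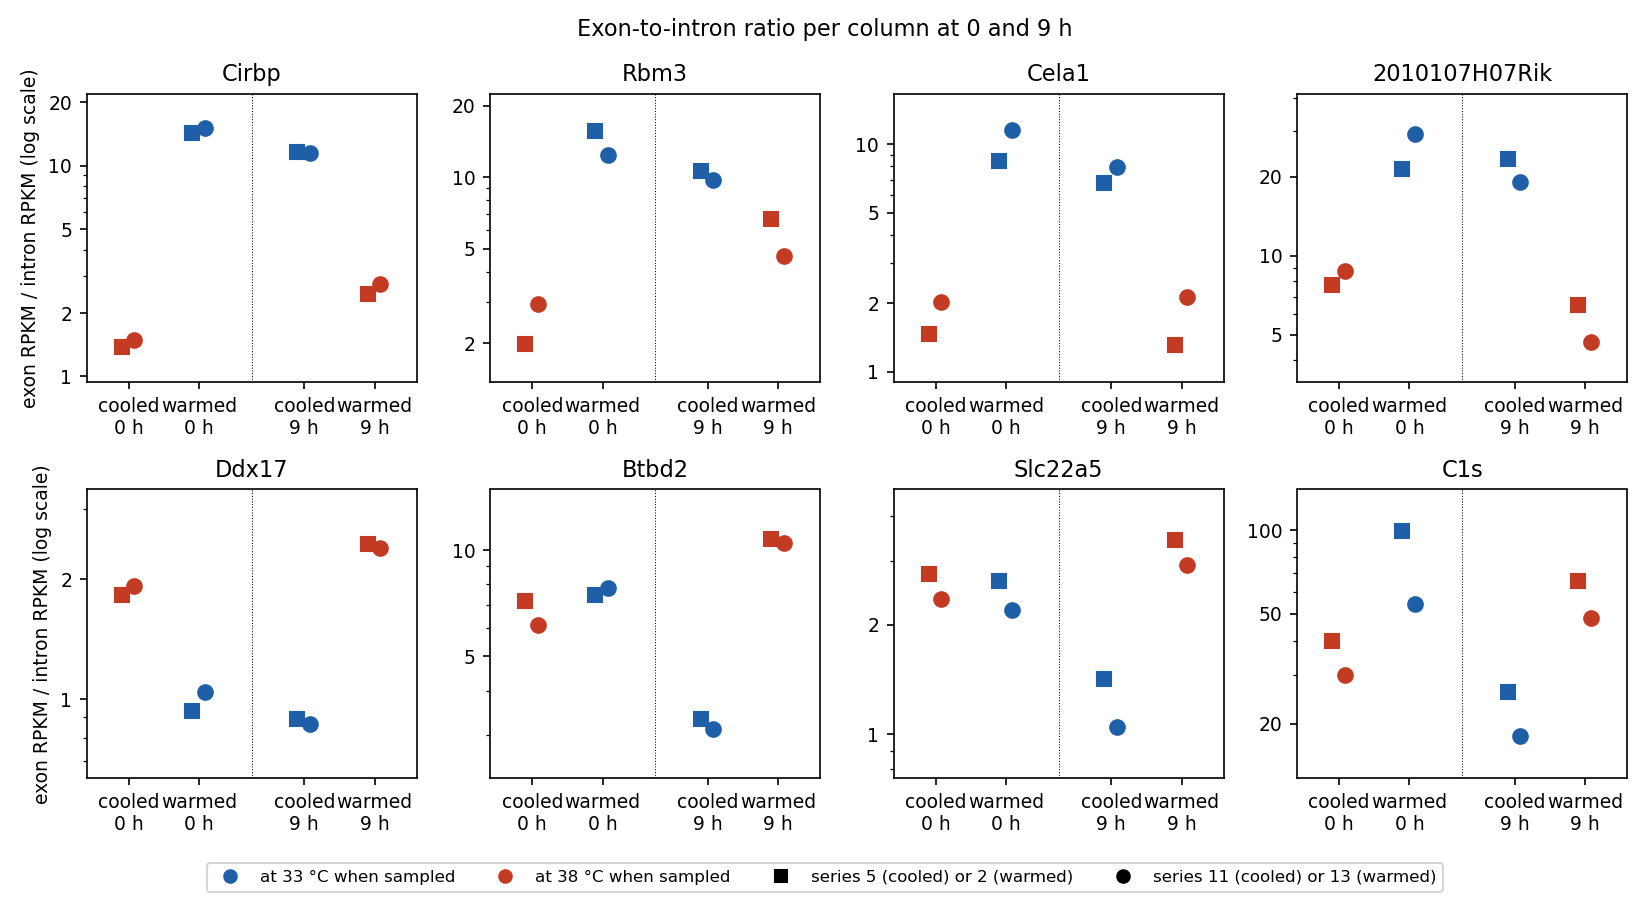
Exon-to-intron ratio (exon RPKM over intron RPKM, both on the exon scale, log axis) of 8 genes in every column at 0 and 9 h, with colours and symbols as in the plot of exon levels. Btbd2 and Slc22a5 show a wider gap at 9 h than at 0 h (Btbd2 3.33 and 3.12 against 10.8 and 10.5), and C1s is lower in the cooled course at both times.

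The 80 genes past 2-fold on exons were then split by read type. Introns could be tested in 15 of the 29 higher genes and 45 of the 51 lower ones. Intron reads differed in the same direction in both pairs in 14 of the 15 and 42 of the 45, and the ratio did so in 12 and 42. Over all genes, introns were higher in both pairs in 27.7% and lower in 28.4%, and the ratio in 29.1% and 46.7%. Because the ratio is exons over introns, parts that share the sign of the exon difference are all but bound to be smaller than it. In the 45 lower genes the median exon difference was -1.30 and -1.36, that of introns -0.60 and -0.71, and that of the ratio -0.68 and -0.84. In the 15 higher genes the medians were 1.34 and 1.61 for exons, 0.71 and 0.93 for introns, and 0.68 and 0.48 for the ratio. Only 3 of the 15 and 8 of the 45 were 2-fold apart on the ratio as well, Cirbp, Cela1, Ddx17 and Btbd2 among them. Because the genes were chosen on exon reads, and the ratio contains those reads, these shares are a description.

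The pairs did not always agree. On exons 16 genes were at least 2-fold apart in opposite directions in the 2 pairs (0.157%), on introns 17 (0.181%) and on the ratio 4 (0.0427%). Aff3, a nuclear transcription elongation factor relative, was at 1.83 and 0.625 exon RPKM in the cooled columns and 0.398 and 3.98 in the warmed ones, so it was higher at 33 °C in 1 pair and lower in the other. Its call (-0.74, edgeR adjusted p = 0.0347) was lost without the cooled 0 h, cooled 6 h, warmed 6 h or warmed 9 h sample, and was 2.53 in series 2 and 5 alone. Ngef, a guanine exchange factor, was at 1.45 and 6.27 against 3.27 and 1.68, and Mgst1, a microsomal glutathione transferase, at 4.07 and 0.930 against 1.15 and 3.00. For Aff3 and Ngef introns showed the same crossed pattern (Aff3 0.170 and 0.0612 against 0.0409 and 0.322 intron RPKM).

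A few features took unusual numbers of reads in single columns. In series 11 of the cooled 9 h sample AY036118, which has no entry of that identifier in the annotation used here and so no RPKM and no test, took 376386 exon reads (1.68% of the column, 219 times the median share of the other columns) and 582012 intron reads (3.80%). Series 5 of the same sample had 3.5 times the median on exons and 3.7 times on introns, and the warmed 9 h columns had 0.898 and 0.951 times on exons. In the same column Kpna1, an importin alpha, had 118468 intron reads (0.774%, 99.6 times the median of the other columns) against 5362, 1569 and 1114 in series 5, 2 and 13, while its exon reads were not raised. Kpna1 overlaps the gene Gm15564. The intron difference of Kpna1 was 1.75 and 7.0, its fitted value 4.65 ± 1.66 (edgeR adjusted p = 0.0712), or 0.97 without the cooled 9 h sample. Lars2, the mitochondrial leucyl-tRNA synthetase, had 1932 exon reads there, 7.01 times the median. Other columns that enter the fit were raised too: Lars2 had 27157 exon reads in series 11 of the cooled 0 h sample (64.9 times), and series 13 of the warmed 1 h sample had 25.9 times the median of AY036118 and 16.8 times that of Kpna1 on introns. Leaving these 3 genes out of the library sizes left the 6 counts of called and of 2-fold genes as they were; the counts of list members called were not recomputed under it.

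Markers of other cell types were mostly low. All 10 fibroblast markers were measured, with a summed 7942 and 7410 RPKM at 33 °C against 8333 and 9337 at 38 °C, most of it S100a4. Of the 10, 8 were called lower and 1 higher at 33 °C, where 27.0% and 22.3% of all genes were, with medians of 0.03 and -0.93. Of 8 epithelial markers only Krt14 was high enough to test, at 13.5 and 25.4 RPKM against 20.7 and 37.5 (-0.44, edgeR adjusted p = 0.005175), and Cldn4, Krt5, Krt18 and Epcam were listed at 0 in all 4 columns. No endothelial or neural marker reached the floor, and Myod1, Myog, Myf5 and Ckm of skeletal muscle were listed at 0. Of the muscle markers Acta1 alone was tested, at 0.338 and 0.695 RPKM against 0.316 and 1.96 (-0.99, edgeR adjusted p = 0.022). Lyz2 and Cd68, 2 of 8 blood and immune markers, were tested and not called, and that list summed to 17.3 and 4.88 RPKM against 8.56 and 14.9. The part of other cells in the results was not tested.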

How the data were processed

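Total RNA of NIH3T3 cells was sequenced in 10 samples, 5 times in each of 2 courses. STAR, bedtools and the build mm10, all without a version, stand in the submitters' processing notes. For read assignment, the use of strand and the annotation, details were not given in the sources used here. Per gene (38087 in all) the authors deposited estimated counts in exons and in introns. The tables are labelled RPKM, but column totals differ, and among exon values above 0, 22.9% lie within 1e-06 of a whole number. Counts were rounded for the tests. RPKM was computed here with TMM library sizes and lengths from GENCODE M21 (GRCm38), in which 36308 genes (95.3%) were found. The further series 10 (1 and 3 h of the cooled course) was not used.

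The 2 columns of each sample were summed, and an offset for each gene took up which series a sample had. edgeR 4.0.16 (R 4.3.3) fitted a level and a slope on log2(h + 1) per course to all 10 samples (6 residual degrees of freedom), and the 9 h levels were compared by the quasi-likelihood test. With 1 sample per time, p-values measure only the scatter around the trends, which may be technical. Pair differences used log2(RPKM + 0.1) for exons and log2(RPKM + 0.01) for introns, and carry no test. The added 0.1 understates changes of low genes on exons. On introns the small 0.01 leaves large differences from few reads. Rom1 reached 5.11 in the pair 5 minus 2 from 3.19 intron reads against 0. Exon genes needed a mean RPKM of 1, intron and ratio genes also a mean intron RPKM of 0.05. The scripts were tested on simulated data.

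The comparison, the gene lists (24, with 6 marker lists) and the tests were chosen with earlier results of these data known. Genes named are Cirbp, Rbm3 and 3 odd features; the 12 protein-coding genes per direction on exons, and the 6 on introns and on the ratio, called and past 2-fold in both pairs, ranked by the smaller pair difference; up to 5 called members per list ranked alike; and the 3 per direction whose pairs disagreed most. Others are named as examples chosen after their values were seen. Alternatives were DESeq2 1.42.0, limma 3.58.1, other scalings, filters, pseudocounts, time scales, single series sets, a time block and leaving out each sample.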

Additional observations from a re-analysis of the deposited data

How the results depend on the processing

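The count of exon calls was 5015 in the main analysis, 3457 in series 2 and 5 alone, 5535 in series 11 and 13 alone (2808 higher and 2727 lower), 6075 without a filter, 4333 with time point as a replicate block, and 3787 to 4889 with 1 sample left out. Samples of the 2 courses share only the time after the change, so that block pairs times, not cultures. Intron calls went from 1884 to 2971 without a filter, 3142 in series 11 and 13 alone (1799 higher and 1343 lower), 1557 in series 2 and 5 alone, 234 with time in linear hours, 3120 from 6 and 9 h without a trend, 40 with the block (11 higher and 29 lower), and 350 to 2328 with 1 sample left out. Ratio calls went from 1109 to 717 and 710 in the 2 series sets alone (214 higher and 503 lower in series 2 and 5, 384 and 326 in series 11 and 13), 401 in linear hours, 2700 from 6 and 9 h, 52 with the block, and 267 to 1487 with 1 sample left out. The exon genes past 2-fold in both pairs, 80, became 51 with larger pseudocounts, 244 without a floor, 27 with a floor of 5 RPKM, and 278 and 611 in the single pairs. For introns 37 became 560, 11, 170 and 353 under the last 4 of these, and for the ratio 59 became 32, 401, 19, 116 and 206 under all 5. Beyond settings that test fewer or more genes, samples or columns, the cause was not tested.

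Of the calls for named genes, 107 of 128 on exons, 9 of 15 on introns and 7 of 13 on the ratio held in every fit that left out 1 sample. Direction turned in series 2 and 5 alone for Aff3 (2.53 on exons, 2.73 on introns) and Ngef (-1.03 and -0.92). It also turned there for Timp3 (0.13 ± 0.19, SE), Ebp (0.0054 ± 0.097) and Rps16 (-0.046 ± 0.13), each smaller than its error. In series 11 and 13 alone it turned for Mgst1 (-2.23), and without the cooled 9 h sample for Lars2, whose left-out fits ranged from -2.37 to 1.29. These data have 1 sample per time and course, and each series lies in 1 course; intron and ratio calls of genes with few intron reads, such as Hoxb7 and Bglap2, are also limited by depth.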
